A study of Homo sapiens with 6 samples.

Results

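The regions described here are 3 stretches of the human genome chosen as clusters of olfactory receptor genes, the longest of them also for the beta-globin genes. Their members are the replication origin peaks that start in them on the T2T-CHM13 build: chromosome 11 from 4.3 to 6.3 Mb, chromosome 11 from 57.9 to 59.6 Mb and chromosome 1 from 246 to 247.3 Mb. They are called the distal, the proximal and the chromosome 1 interval below, the first of them lying nearer to an end of chromosome 11 than the second. Together the intervals span 5 Mb and hold 1387 of the 945863 peaks listed in 4 samples: control 1 contributed 270, control 2 contributed 370, siORCA 1 contributed 486 and siORCA 2 contributed 261. Each interval was set against the 2 Mb on either side of it, except that the chromosome 1 interval has only 1.09 Mb up to the last listed peak of the chromosome. These flanks span 11.1 Mb and hold 5233 peaks.

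Olfactory receptor genes form the largest gene family in mammals, lie in tandem clusters, and are used by sensory neurons of the nose, each of which expresses a single receptor. In other cells such clusters are silent and are commonly packed in compact chromatin that replicates late in S phase. The beta-globin cluster encodes the beta-type chains of haemoglobin, sits inside an olfactory receptor cluster, and is a classic locus for origin mapping: an initiation region near the adult gene HBB has been mapped there in human cells. In mammals, origins are sites where the origin recognition complex loads the replicative helicase, and many more are licensed than fire in any one cell.

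The measurements are nascent-strand sequencing (NS-seq), in which DNA is fractionated by size and digested with an exonuclease; in this method short new strands that carry an RNA primer resist the enzyme, so reads pile up where replication began. The cells were U2OS, an established human osteosarcoma line, transfected with a control siRNA (gl3) in 2 samples or with an siRNA against ORCA (siORCA) in 2 samples; ORCA, encoded by LRWD1, is a partner of the origin recognition complex. Neither the time after transfection nor separate cultures are given for the replicates, so each p-value measures nothing beyond how these libraries scatter, possibly for technical reasons, and DNA cannot show how far ORCA was reduced. The lists held from 181215 peaks (control 1) to 330265 peaks (siORCA 1), no read counts accompany them, and depth is therefore unknown; for that reason most comparisons below are made inside a list.

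In RefSeq's gene order for the GRCh38 build, the embryonic gene HBE1, the fetal genes HBG2 and HBG1, the pseudogene HBBP1, the minor adult gene HBD and the major adult gene HBB form 1 run. The 12 genes next to HBB on the outer side all carry olfactory receptor symbols, the nearest being OR51V1. Of the 12 genes next to HBE1 on its outer side, 10 do, and OR51AB1P and OR51B4 are the nearest. Chromosome 11 has 376 olfactory receptor genes and pseudogenes in that annotation, 171 of them protein coding, and chromosome 1 has 96, 61 of them protein coding. The peaks are on another build, so no gene of this list was placed on them, and which bases of each interval are olfactory receptor genes was not checked. Flanks can hold further members of the family for the same reason. That these genes are silent in U2OS is also taken from outside the data, which measure no RNA.

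Both chromosome 11 intervals had far fewer peaks than the DNA around them, in every sample. In the distal interval control 1 had 56 peaks per Mb, control 2 had 83.5, siORCA 1 had 102.5 and siORCA 2 had 53. Its flanks had 129, 157, 199.5 and 123 peaks per Mb in the same order. All 4 lists were thus sparser inside, by 2.10-fold on average (log2 ratio of interval to flanks −1.07 ± 0.16, SD, n = 4; two-sided exact sign-flip permutation p = 0.13, the smallest that 4 samples allow). For the proximal interval the values were 49.4, 67.1, 85.3 and 52.4 peaks per Mb, against 87.2, 118, 160 and 107 in its flanks. The deficit there was 1.86-fold (log2 −0.89 ± 0.10, SD, n = 4; exact permutation p = 0.13) and again present in all 4 lists.

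The chromosome 1 interval showed no such deficit against its flanks. How much of the olfactory receptor cluster at that chromosome end it covers is not known here, and density stayed low from its last 0.4 Mb into the first 0.7 Mb of the right flank, so interval and flanks may not separate cluster from surroundings. It had 56.9, 68.5, 105 and 50.8 peaks per Mb, and its flanks 56.4, 70, 109 and 59. The log2 ratio was −0.07 ± 0.10 (SD, n = 4; exact permutation p = 0.25), with 3 lists below and 1 above its flanks, and it turned positive against flanks of 1 Mb (0.10) and against the right flank alone (0.05). Over the 3 intervals summed, density was 1.72-fold lower than in the flanks (log2 −0.78 ± 0.11, SD, n = 4; exact permutation p = 0.13). The family holds 20 interval-to-flank tests (5 measures over 3 intervals and their sum), and in it Benjamini-Hochberg adjustment turned each exact permutation p of 0.13 into 0.147.

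**Figure D1:**
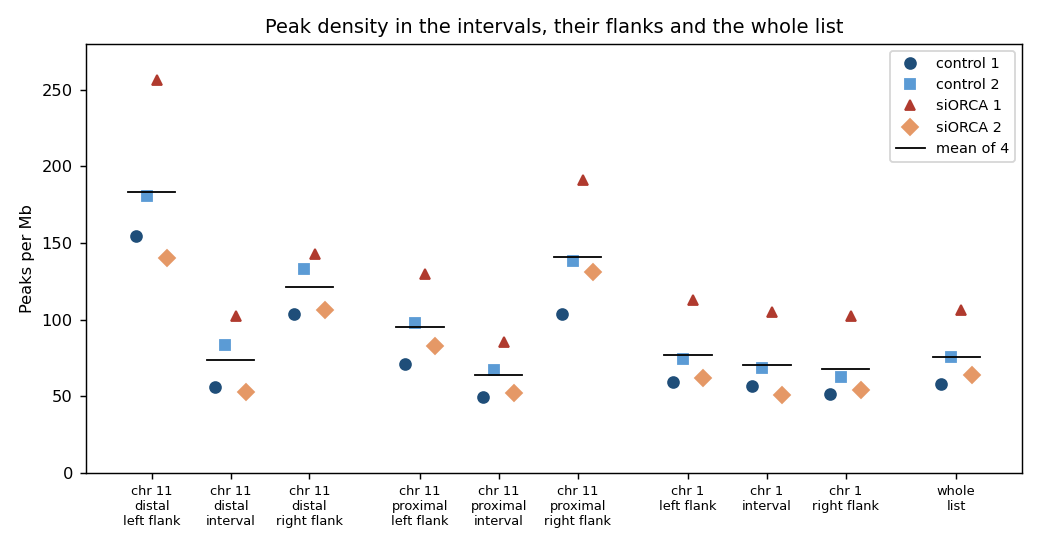
Peaks per Mb (vertical axis) in each interval, in its left and right flank and in the whole list; each point is 1 of the 4 samples and each bar is their mean. On chromosome 11 every sample lies lower in the interval than in either flank, whereas on chromosome 1 the interval and its flanks overlap.

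The size of the deficit depended on the comparator, and the flanks of chromosome 11 were rich in peaks. The density of the whole list was taken over 3117 Mb, where 29468 of 31186 bins of 100 kb held a peak in any list. Stretches without a peak lower that density. Relative to it, the distal interval stood at 0.963, 1.10, 0.967 and 0.832 in control 1, control 2, siORCA 1 and siORCA 2. This is a mean of 0.967 ± 0.11 (SD, n = 4; exact permutation p = 0.625), while its flanks stood at 2.03 ± 0.15. The proximal interval reached 0.841 ± 0.035 and the chromosome 1 interval 0.917 ± 0.088 of the whole-list density, below 1 in all 4 lists (exact permutation p = 0.13 for each). Against the rest of the chromosome the log2 ratio was −0.41 in the distal, −0.60 in the proximal and −0.38 in the chromosome 1 interval. In stricter lists, which keep only peaks whose −log10 q reaches 3, the ratios to the flanks on chromosome 11 were −1.49 and −1.12.

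In bins of 100 kb the intervals held few bins at either extreme. Summed over the 4 lists, bins with any peak had a genome median of 21 peaks, with quartiles at 11 and 42. Of the 50 interval bins, 16 lay below that median, 1 lay below the lower quartile and 8 lay above the upper quartile. Of the 111 flank bins, 28 lay below the median, 9 below the lower quartile and 47 above the upper quartile. Only 3 interval bins had no peak in at least 1 list. Bins kept part of their order between samples: over the 50 interval bins, Spearman's rho between pairs of lists ran from 0.544 to 0.714, a description over bins of the same DNA and not over independent samples.

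**Figure D2:**
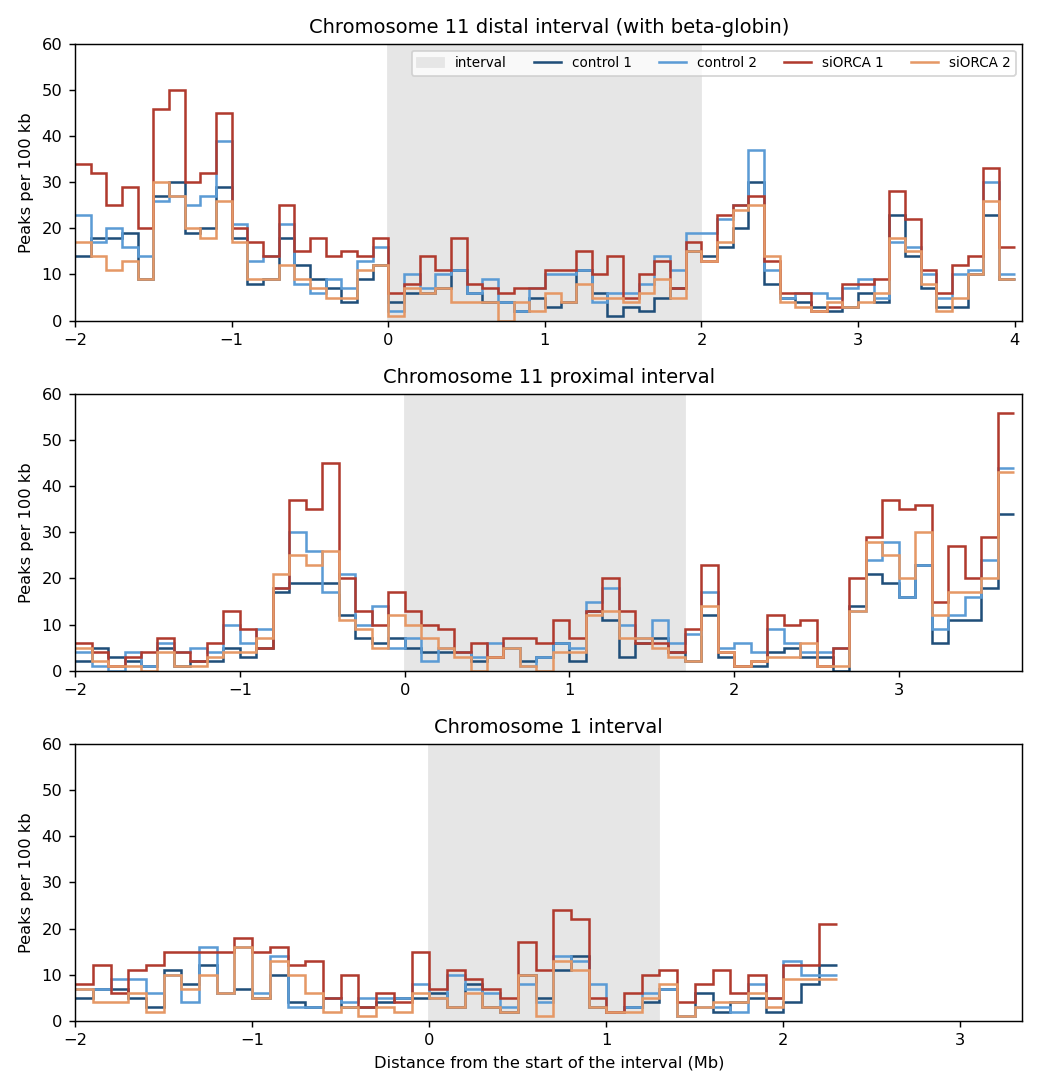
Peaks per 100 kb (vertical axis) along each interval (grey) and its flanks, against the distance from the interval's start in Mb; each line is 1 sample, and the last, incomplete bin of chromosome 1 is left out. On chromosome 11 all 4 lines have smaller rises inside the grey span than in parts of the flanks, while chromosome 1 shows no step at either edge.

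Inside the distal interval, density was lowest at the first edge and highest at the far edge, with smaller rises between. The bin from 4.3 to 4.4 Mb had the fewest peaks, with 4, 2, 6 and 1 in control 1, control 2, siORCA 1 and siORCA 2. The last bin, from 6.2 to 6.3 Mb, had the most, with 15, 19, 17 and 15. The bins from 4.7 to 4.8 Mb (11, 11, 18 and 4 peaks) and from 5.5 to 5.6 Mb (11, 11, 15 and 8) also lay above the genome's upper quartile. Without the last bin the interval held 51.1, 77.9, 98.9 and 47.9 peaks per Mb, and its mean log2 ratio to the flanks went from −1.07 to −1.18. The next 0.4 Mb, already in the flank, had 197.5 to 257.5 peaks per Mb.

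The proximal interval held 1 denser patch. The bin from 59.1 to 59.2 Mb had 11, 18, 20 and 13 peaks, the most in the interval, and the bin from 58.3 to 58.4 Mb the fewest, with 2, 3, 6 and 0. The patch from 59 to 59.2 Mb, its bounds chosen after the values were seen, had 120 to 165 peaks per Mb, and it held 9 of the 18 sites of this interval that all 4 lists contain. In the chromosome 1 interval, peaks concentrated from 246.5 to 246.9 Mb (bounds chosen likewise), at 87.5 to 185 per Mb, and fell to between 30 and 57.5 per Mb from 246.9 to 247.3 Mb. Its fullest bin, from 246.7 to 246.8 Mb, had 11, 14, 24 and 13 peaks. Its emptiest, from 247 to 247.1 Mb, had 2 in each list.

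Sparse stretches were not limited to the intervals. Within the flanks, and picked after their values were seen, chromosome 11 from 6.7 to 7.5 Mb had 43.8 to 68.8 peaks per Mb, from 55.9 to 57.1 Mb 27.5 to 53.3, and from 59.8 to 60.6 Mb 25 to 57.5. The 0.7 Mb that follow the chromosome 1 interval had 38.6 to 78.6. The flanks therefore mix sparse and dense DNA, and the proximal interval's log2 density ratio was −0.58 against its left flank alone and −1.15 against its right flank alone. For the distal interval these were −1.33 and −0.76.

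Peaks in the chromosome 11 intervals were also narrower than in their flanks, so the covered length fell further than the number. In the distal interval peaks covered 15.5, 22.2, 23.1 and 13.6 kb per Mb in control 1, control 2, siORCA 1 and siORCA 2, against 47.1, 52.5, 60.2 and 43.7 kb per Mb in its flanks. The log2 ratio was −1.48 ± 0.20 in the distal and −1.31 ± 0.18 in the proximal interval, and −0.17 ± 0.13 in the chromosome 1 interval (SD, n = 4 each; exact permutation p = 0.13 for each). The chromosome 1 value depended on the setting: it was −0.01 with flanks of 1 Mb (exact permutation p = 1), −0.52 in the stricter lists and −0.65 against the rest of the chromosome. The median width in the distal interval was 214.5, 184, 157 and 185 bp, below the 252.5, 223.5, 192 and 240 bp of its flanks in each list. Across the whole lists it was 216, 189, 167 and 212 bp, nearer to the interval than to the flanks in each list, though almost midway in siORCA 2. On chromosome 1 it was 192.5, 187, 152.5 and 170 bp, against 185, 175, 150 and 173 bp in the flanks.

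Gaps between neighbouring peaks of the same list were longer in the chromosome 11 intervals. The median gap in the distal interval measured 10 kb for control 1, 6.58 kb for control 2, 5.38 kb for siORCA 1 and 10.1 kb for siORCA 2, where its flanks had 3.44, 2.90, 2.23 and 3.37 kb. That is 2.63-fold longer (log2 1.39 ± 0.20, SD, n = 4; exact permutation p = 0.13). For the proximal interval the ratio was 2.73-fold (log2 1.45 ± 0.23, SD, n = 4; exact permutation p = 0.13), with 10.4, 7.52, 6.83 and 8.74 kb inside and 3.83, 3.46, 2.32 and 2.75 kb outside. On chromosome 1 the gaps did not differ from those of the flanks beyond their spread (log2 −0.03 ± 0.27, SD, n = 4; exact permutation p = 0.875), and the sign of that value changed without control 1 (0.04) and without siORCA 1 (0.02). Against the rest of the chromosome the gaps of this interval were longer in all 4 lists (log2 1.02 ± 0.29, SD, n = 4; exact permutation p = 0.13).

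Very long gaps took up more of the intervals than of the flanks in 3 of the 4 lists, and less than of the whole lists in all 4. Gaps of at least 50 kb took up 31.1, 17.7, 7.68 and 37.3% of the 5 Mb in control 1, control 2, siORCA 1 and siORCA 2. In the flanks they took up 20.7, 12.5, 12.4 and 25.9%, so siORCA 1 went the other way, and across the whole lists 47.4, 34.9, 26.8 and 49.6%. The whole-list shares include single gaps of up to 50846 kb, in siORCA 2. The longest gap of any list in an interval was 152 kb, in siORCA 2 in the proximal interval, against 194 kb in its flanks in the same list. No interval held a stretch of 50 kb free of peaks in all 4 lists (0 such stretches), whereas 3 of the 6 flanks held 1 each. The longest shared empty stretch was 33 kb in the distal interval (chromosome 11 from 4315998 to 4349020), 38.4 kb in the proximal (chromosome 11 from 58020459 to 58058815) and 42.3 kb in the chromosome 1 interval (chromosome 1 from 247134801 to 247177086).

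The peaks that did occur in the chromosome 11 intervals ranked lower in their list than those of the flanks. Strength was read as the rank of the authors' fold enrichment within a list, as a percentile with the list's median at 50. The median peak of the distal interval stood at percentile 30.6, 40.7, 43.8 and 43.3 in control 1, control 2, siORCA 1 and siORCA 2, and that of its flanks at 48.9, 54.6, 54.2 and 57.4. In the proximal interval it stood at 40.4, 45, 45.7 and 46.7, and in its flanks at 51.5, 53.9, 54.4 and 52.8. The interval medians thus lay below the middle of the list. The flank medians lay above it, except that of control 1 in the distal flanks. The difference in the distal interval was −14.2 ± 3.21 percentile points (SD, n = 4; exact permutation p = 0.13). It was −8.69 ± 2.10 in the proximal interval (exact permutation p = 0.13) and −1.91 ± 4.76 on chromosome 1, where 2 lists were lower and 2 higher (exact permutation p = 0.75); without siORCA 2 the last value turned to 0.38. In the stricter lists, ranked among themselves, the differences no longer exceeded their spread: −6.15 ± 9.0 in the distal, −5.89 ± 9.32 in the proximal and −12.3 ± 16.0 in the chromosome 1 interval (SD, n = 4; exact permutation p = 0.375, 0.25 and 0.25). On chromosome 1 the full-list medians were 42, 47.1, 43.1 and 39.9 inside and 39.9, 47.1, 44.1 and 48.7 in the flanks. All lay below the middle of the list. Against the rest of the chromosome, the full-list differences were −11.4 ± 4.75 in the distal and −6.46 ± 1.39 in the proximal interval. On chromosome 1 it was −7.97 ± 3.36 (SD, n = 4, exact permutation p = 0.13 for each).

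The deficit in number was accordingly deeper among strong peaks. With each list divided at its quartiles of fold into 4 classes, the distal interval had 0.687 ± 0.086 of the flank density in the weakest class, 0.589 ± 0.15 and 0.381 ± 0.11 in the middle ones and 0.308 ± 0.034 in the strongest (SD, n = 4). In the proximal interval the ratios were 0.672 ± 0.20, 0.644 ± 0.11, 0.496 ± 0.096 and 0.398 ± 0.091. Every list had a lower ratio in the strongest class than in the weakest in both intervals. On chromosome 1 the ratios were 1.07 ± 0.27, 0.881 ± 0.17, 1.16 ± 0.34 and 0.80 ± 0.13 (SD, n = 4), with no steady fall. The strongest class was below the weakest in each list there too, though the ranges over lists overlapped.

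**Figure D3:**
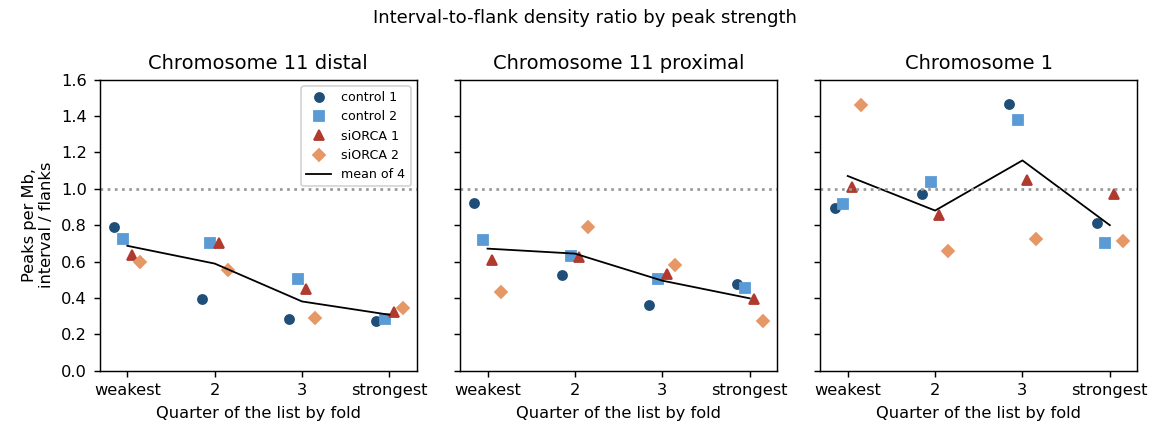
Ratio of peaks per Mb in an interval to that in its flanks (vertical axis) for each strength class of the list, divided at the quartiles of fold enrichment; each point is 1 sample, the line is the mean of 4 and the dotted line marks equal density. On chromosome 11 the ratio falls from 0.687 and 0.672 in the weakest class to 0.308 and 0.398 in the strongest, and on chromosome 1 it goes from 1.07 through 0.881 and 1.16 to 0.80.

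Peaks of the chromosome 11 intervals were less often found in another sample. A peak counted as shared when at least 1 bp of it overlapped a peak of any other list. Such overlap is met more easily where the lists cover more DNA. Averaged over the 4 lists, peaks covered 18.6 kb per Mb in the distal interval and 50.9 kb per Mb in its flanks. How far the sharing follows from covered length was not tested. In the distal interval 58, 49.7, 50.2 and 81.1% of the peaks of control 1, control 2, siORCA 1 and siORCA 2 were shared, against 75.6, 63.9, 63.8 and 89.2% in its flanks. The difference was −13.3 ± 3.90 percentage points (SD, n = 4; exact permutation p = 0.13), and −10.0 ± 5.87 in the proximal interval (exact permutation p = 0.13). The proximal value was −5.90 in the stricter lists and −6.23 with flanks of 1 Mb, where the lists no longer shared 1 sign (exact permutation p = 0.25 for each). It was −15.4 without control 2, −6.64 without siORCA 1 and −15.7 without siORCA 2, each of which also leaves fewer lists to share with. The chromosome 1 interval went the other way, at 6.88 ± 2.98 points above its flanks (SD, n = 4; exact permutation p = 0.13). That sign did not hold in the stricter lists (−5.66), against the rest of the chromosome (−2.78), or with the interval moved by 0.5 Mb away from the chromosome end (−2.02). It was 2.17 without control 2 and 3.75 without siORCA 1 (exact permutation p = 0.75 for each), and 2.74 where at least 50% of a peak had to be overlapped.

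Over the whole lists sharing rises with strength. Peaks below their list's median fold made up more of the chromosome 11 intervals than of their flanks in every list. On chromosome 1 this did not hold in every list. Within classes of like strength, from weakest to strongest, the difference in sharing in the distal interval was −7.41 ± 4.44, −14.9 ± 5.12, −4.37 ± 7.06 and −4.89 ± 5.11 points (SD, n = 4). In the proximal interval it was −6.56 ± 10.5, −11.1 ± 8.46, −7.19 ± 9.67 and −5.24 ± 8.0 points. On chromosome 1 it was 16.4 ± 18.2, 11.7 ± 12.8, −1.45 ± 14.7 and 3.94 ± 2.74 points. The mean was thus below 0 in every class on chromosome 11, within the spread in several, and of either sign on chromosome 1. These classes were not matched for covered length. Over the 3 intervals summed, in the strongest class, 86.9 ± 11.7% of interval peaks and 90.2 ± 8.89% of flank peaks were shared.

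Merging all lists wherever peaks touched or overlapped gave 868 regions in the intervals, of which 556 (64.1%) were in 1 list only and 54 in all 4. Those 54 are 6.22% of the regions (Wilson 95% interval 4.80 to 8.03%, counting error only). In the flanks the share was 12.9% (11.7 to 14.2%) and over the genome 10.7%. This share also depends on how much DNA the lists cover, for which no correction was made. By interval it was 5.29% of 378 in the distal, 6.64% of 271 in the proximal and 7.31% of 219 in the chromosome 1 interval, against 14.9, 13.8 and 6.94% in their flanks. Counted by length, sites in all 4 lists numbered 10 per Mb in the distal interval, 10.6 in the proximal and 12.3 in the chromosome 1 interval, against 46.8, 34.2 and 13 per Mb in the flanks and 18.3 per Mb over the genome. They fell in 25 of the 50 interval bins, and the longest distance between neighbours was 451 kb, in the distal interval.

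**Figure D4:**
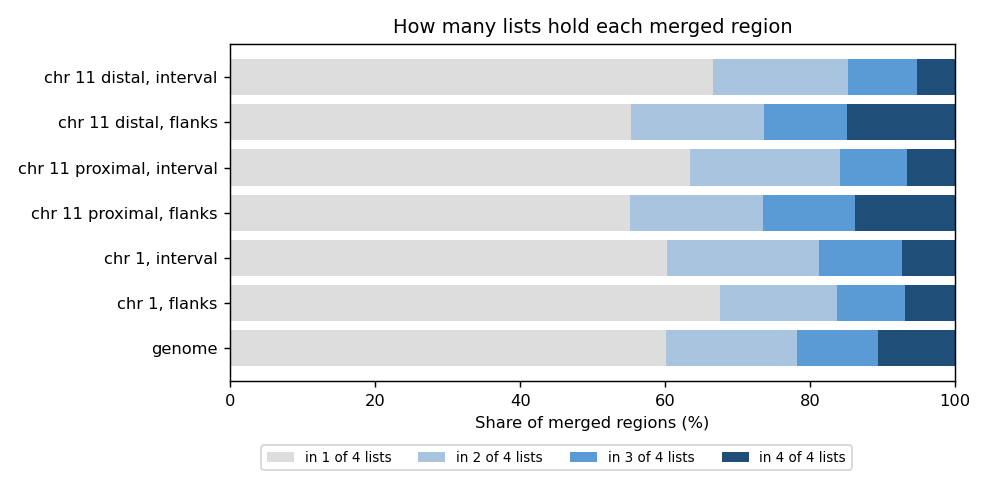
Share of merged regions (horizontal axis, %) found in 1, 2, 3 or 4 of the 4 lists, for each interval, its flanks and the genome. The darkest segment, regions in all lists, is 5.29 and 6.64% in the chromosome 11 intervals against 14.9 and 13.8% in their flanks, and nearly equal inside and outside on chromosome 1.

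The site with the steadiest high rank in the distal interval lay on chromosome 11 from 5224197 to 5224904, a merged region of 708 bp. Its fold enrichment, as the authors give it, stood at 18 for control 1, 8.29 for control 2, 12.9 for siORCA 1 and 14.5 for siORCA 2, at percentiles 99.5, 96.8, 95.1 and 99.1 of those lists. It was the strongest peak of the interval in control 1 and was ranked high in all 4. Peaks covered 280, 207, 708 and 308 bp of it. This position is on T2T-CHM13 and was not set against the mapped globin origin or any globin gene, whose places on that build were not used here. The next sites by this rule were a pair at the far edge of the interval, on chromosome 11 from 6292438 to 6292959 (percentiles 87 to 96.3) and from 6293380 to 6293689 (81.5 to 95).

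Other leading peaks of the distal interval were less even. A site at chromosome 11 from 6132415 to 6133272 was the strongest in control 2 (15-fold) and in siORCA 2 (14.7-fold), with 8.05 in control 1 and 6.88 in siORCA 1. The strongest peak of siORCA 1, from 6040717 to 6040960, had a fold of 41.5 there but 3.05, 4.43 and 3.52 in control 1, control 2 and siORCA 2. In control 1 that peak ranked at percentile 2.84 of its list.

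In the proximal interval the steadiest site was on chromosome 11 from 59063380 to 59063780, with folds of 8.37, 14, 8.46 and 11.7 in control 1, control 2, siORCA 1 and siORCA 2 and percentiles from 87.4 to 99.4. It was the strongest peak of the interval in both control 2 and siORCA 2. Sites from 58991942 to 58992144 (percentiles 86.9 to 95.6) and from 59019139 to 59019475 (83.4 to 99.1) followed. The strongest peak in control 1, from 58862597 to 58862941, had folds of 8.82, 8.08, 13.6 and 5.79. The strongest in siORCA 1, from 58808684 to 58808876, had a fold of 71.5 in that list and no peak in the other 3.

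The chromosome 1 interval held the highest fold listed in any of the 3. The site lay on chromosome 1 from 246735302 to 246735583 and was the leading peak of the interval in 3 of the 4 lists. Control 1 gave it a fold of 11.1, control 2 of 20.1, siORCA 1 of 121 and siORCA 2 of 34.6, which is rank 2676, 431, 40 and 165 of each list. Lists were called separately at an unknown depth, so the folds do not test for a change. In control 2 a narrower peak of 102 bp, from 246123134 to 246123235, was higher still at 52.8-fold (rank 35); it had 30.3-fold in siORCA 1 and was absent from control 1 and siORCA 2. The next sites present in all lists ran from 246212793 to 246213600 (percentiles 82.6 to 95.3) and from 246521529 to 246522191 (70.6 to 97.2).

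Whether origin use in these clusters changes when ORCA is targeted was asked with each sample's share of its own list. The 3 intervals together took 0.149% of the peaks of control 1, 0.157% of control 2, 0.147% of siORCA 1 and 0.131% of siORCA 2. Both siORCA values were below both controls, by a small margin between siORCA 1 and control 1 (0.153 ± 0.0056% against 0.139 ± 0.0111%, SD over 2 samples; two-sided exact permutation p = 0.333, the smallest 2 against 2 samples allow, and 0.667 after adjustment over the 3 intervals and their sum). By covered length the shares were 0.126 and 0.145% in control and 0.123 and 0.103% in siORCA (exact permutation p = 0.333). The difference in peak share, −0.0136 percentage points, was −0.0215 without siORCA 1 and −0.0058 without siORCA 2. In the stricter lists its sign turned, the siORCA mean being 0.0023 percentage points higher.

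The intervals differed in how the groups lay. In the distal interval the shares of peaks were 0.0618 and 0.0708% for the controls, 0.0621 and 0.0534% for the siORCA samples, and the groups overlapped (exact permutation p = 0.667). The difference there, −0.0086 percentage points, was −0.0041 without control 2 and −0.0042 without siORCA 2. For the proximal interval they were 0.0464 and 0.0483% in control and 0.0439 and 0.0448% in siORCA, which do not overlap (exact permutation p = 0.333). In the chromosome 1 interval they were 0.0408 and 0.0377% against 0.0412 and 0.0332% (exact permutation p = 1), and the difference turned positive without siORCA 2 (0.0019 percentage points).

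**Figure D5:**
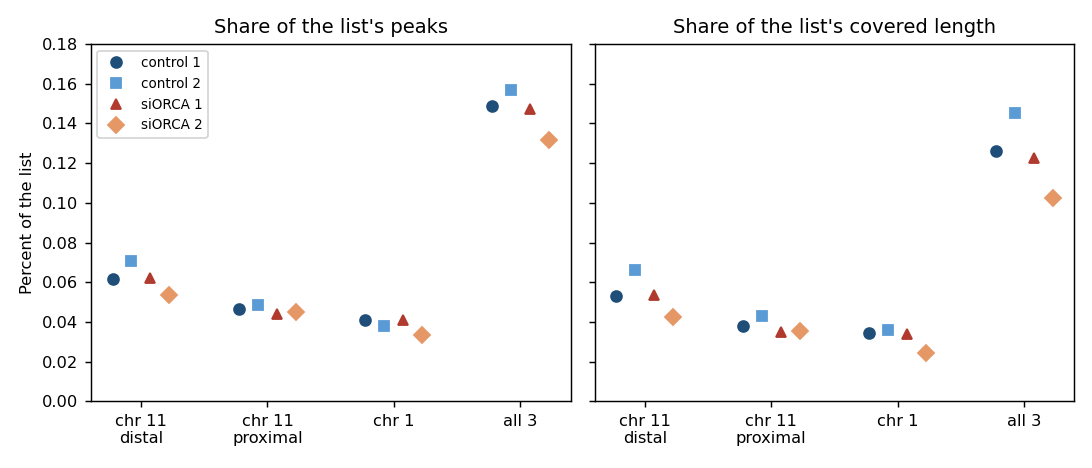
Percent of each list's peaks (left) and of its covered length (right) that lie in each interval and in all 3; each point is 1 sample. For all 3 intervals both siORCA samples lie below both control samples in either panel, with siORCA 1 close to control 1.

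The contrast with the flanks was compared between the groups in the same way. For the distal interval the controls gave a log2 density ratio of −1.06 ± 0.21 and the siORCA samples −1.09 ± 0.18 (SD over 2 samples; exact permutation p = 0.667). The same pair of values was −0.82 ± 0.0035 and −0.97 ± 0.0835 for the proximal interval, and −0.0085 ± 0.032 and −0.14 ± 0.11 for chromosome 1 (SD over 2 samples; exact permutation p = 0.333 for each, 0.702 after adjustment over 20 such comparisons). In these last 2 the siORCA values were both below the control values.

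Across the genome, 22448 bins of 100 kb with a mean covered length of at least 500 bp were compared between siORCA and control with limma, on log2 of covered length plus 500 bp over the sample's total. Among them were 48 of the 50 interval bins. None of the 48 was called (0 in limma at an adjusted p under 0.05), and of all bins 0% was called in either direction. At an unadjusted p under 0.05 limma gave 3 of the 48, all lower in siORCA. Over all 22448 bins it gave 1176, of which 889 were lower and 287 higher, so most went the same way. Each of the 3 interval bins had an adjusted p of 0.934 in limma, the lowest of any interval bin. The first was chromosome 11 from 6.1 to 6.2 Mb, where peaks covered 2.48 and 4.10 kb in control and 1.90 and 1.30 kb in siORCA (log2 difference −1.08, SE 0.40). The others were 4.7 to 4.8 Mb (log2 −0.91, SE 0.38) and 59 to 59.1 Mb (log2 −0.76, SE 0.36) on the same chromosome.

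The groups did not overlap, with siORCA below control, in 15 of the 48 bins, and 21.5% of all tested bins did the same; with siORCA above control this held in 2 bins, against 12.1% of all. The median log2 difference was −0.20 over interval bins and −0.09 over all bins. Lower values were found in 70.8% of interval bins and 58.2% of all bins. Centring each sample on its median bin moved the median of all bins by 0.15, and then 27 of the 48 interval bins (56.2%) were lower, against 44% of all, with medians of −0.05 and 0.07. With peak starts in place of covered length, 35 of 50 were lower (70%), against 61.9% of all bins, with medians of −0.25 and −0.10. At matched covered length the medians were −0.38 over interval bins, 34 of 42 of them lower (81%), and −0.05 over all bins, 54.8% of them lower. In the stricter lists the medians were −0.38 and −0.16. The interval median was −0.31 without control 1 and −0.13 without siORCA 2, against −0.12 and −0.06 over all bins.

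Of the 868 merged regions, 39 were gained (in both siORCA lists and neither control) and 19 were lost (the reverse). Gained regions are 4.49% of those in the intervals (Wilson 95% interval 3.30 to 6.08%, counting error only) against 5.44% over the genome and 5.41% in the flanks. Lost ones are 2.19% (1.41 to 3.39%) against 1.67% over the genome and 1.91% in the flanks. Both Wilson intervals include the genome's share. Lists of equal covered length gave 25 gained and 24 lost, and the stricter lists 36 and 3. Without control 1, control 2, siORCA 1 or siORCA 2 the gained regions numbered 66, 73, 92 and 290 and the lost ones 186, 118, 30 and 38, since 1 group then rests on a single list.

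The widest gained and lost regions ranked from percentile 22.3 to 85.5 of their lists. The widest gained region of the distal interval, on chromosome 11 from 4913935 to 4914611, had folds of 4.35 in siORCA 1 and 3.82 in siORCA 2, at percentiles 46.1 and 33.5. Its widest lost region, from 6137228 to 6138210, had folds of 4.56 in control 1 and 3.73 in control 2. For the proximal interval the widest gained region ran from 59428589 to 59428991 (percentiles 72.1 and 49) and the widest lost one from 58154685 to 58155532 (40.7 and 61.3). In the chromosome 1 interval they ran from 246824682 to 246825119 (85.5 and 31.7) and from 246812286 to 246812771 (22.3 and 37.3). In each gained pair siORCA 1 gave the higher percentile.

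Overlap between pairs of lists was lower in the intervals than in the flanks for all 6 pairs. The Jaccard index, which divides the bases found in both lists by those found in either, was 0.124 to 0.207 in the intervals and 0.199 to 0.305 in the flanks. In the intervals it was 0.135 between the controls and 0.207 between the siORCA lists, and 0.124 to 0.185 between lists of different groups. Over the genome the same pairs gave 0.185 to 0.291. The index also depends on how much DNA the lists cover, which was less in the intervals than in the flanks.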

How the data were processed

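The 4 nascent-strand samples of U2OS cells, 2 per siRNA, were analysed, and the 2 genomic DNA samples were not analysed here. BWA, SAMtools and MACS2 and the T2T-CHM13 build are named in the submitters' processing notes; the sources used here give no version, setting or background of the caller. The authors deposited 1 broad peak list per sample, each peak with a score, a fold enrichment (a linear ratio), a −log10 p-value and a −log10 q-value. The deposited score equals the −log10 q multiplied by 10 and rounded down, except in 81 peaks. The lowest deposited −log10 q is 1.30.

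From these lists, peaks starting in an interval or flank, covered length, gaps, overlap of at least 1 bp and ranks of fold within a list were computed (Python 3.11.15, numpy 2.4.6, pandas 2.3.3, scipy 1.17.1). Interval-to-flank values were tested by sign flips over samples, groups by exact permutation, and bins of 100 kb with limma 3.58.1 in R 4.3.3 (pseudocount 500 bp, Benjamini-Hochberg adjustment, threshold 0.05). Simulated data for siORCA against control over 22448 bins gave every bin the same noise (SD 0.36). There limma recovered 24% of bins changed by a log2 of 1 and 98% of those changed by 2. In the real interval bins the SE of the log2 difference ran from 0.33 to 0.60, so recovery in those bins was not measured. A log2 difference on this scale understates the change of sparse bins. Replicate numbers were not used as pairs in the main comparison (correlation of same-numbered deviations −0.17 over bins). With 2 samples per group each deviation mirrors its partner's. That value therefore cannot show whether same-numbered samples shared a batch or culture.

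Sites were named by rule: per interval, the highest fold in each list, up to 3 sites in all 4 lists by the best worst percentile, the widest gained and lost region, the longest stretch empty in all lists, the fullest and emptiest bin, and any bin past the threshold. The intervals, lists and rules were chosen with earlier results of these data known. No T2T-CHM13 sequence or annotation was used here, so no sequences or gene positions are given.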

Additional observations from a re-analysis of the deposited data

Results flagged for a closer look

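In the chromosome 1 interval the median rank of fold, interval minus flanks, was above 0 in both control samples (1.07 ± 1.47 percentile points) and below 0 in both siORCA samples (−4.89 ± 5.49, SD, n = 2 each). Control 1 gave 2.11, control 2 gave 0.031, siORCA 1 gave −1.01 and siORCA 2 gave −8.78, so control 2 was close to 0 and siORCA 2 lay apart from the rest. It stood out because both control values had one sign and both siORCA values the other. The difference between the groups was −5.96 percentile points (exact permutation p = 0.333, which 2 against 2 samples cannot go below, and 0.702 after adjustment over 20 comparisons).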

How the results depend on the processing

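For the distal and proximal intervals and the sum of all 3, the means over lists of the 5 interval-to-flank measures kept their sign under all 51, 51 and 61 alternative values. Single lists differed in sign in some settings. Examples are the distal rank in the stricter lists (−6.15 ± 9.0, SD; exact permutation p = 0.375) and proximal sharing with at least 50% of a peak overlapped (−9.96 ± 7.68, SD; exact permutation p = 0.25). With 4 samples no such test can pass 0.05, so this says nothing on significance. For the chromosome 1 interval 12 of 61 alternatives changed direction, and the cause was not tested. These were log2 density with flanks of 1 Mb (0.10) and the right flank alone (0.0535), and the log2 gap ratio against the rest of the chromosome (1.02), with the interval 0.5 Mb further from the end (0.0309) and with the left flank alone (0.00601). The others were the difference in sharing with the stricter list (−5.66), the rest of the chromosome (−2.78) and the moved interval (−2.02), and the rank difference with the moved interval (1.00). With each sample left out, its gap ratio ran from −0.16 to 0.0363 and its rank difference from −3.25 to 0.38. The single-flank comparisons were chosen after seeing the data.

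The siORCA minus control share of peaks changed sign with the stricter list for the distal interval (0.0019 percentage points), the chromosome 1 interval (0.0014) and all 3 (0.0023). With each sample left out it ran from −0.0060 to 0.0019 on chromosome 1, from −0.0131 to −0.0041 in the distal, from −0.0040 to −0.0020 in the proximal and from −0.0215 to −0.0058 in all 3 intervals. With 1 sample of each group per number, the replicate block cannot move the mean difference (−0.0136 for all 3); the SD of the 2 within-number differences was 0.0167, larger than that mean, and 0.00074 for the proximal interval (mean −0.0030). Gained regions fell to 25 in lists of matched length and ran from 66 to 290 with a sample left out. Lost regions fell to 3 with the stricter list and ran from 30 to 186. Their ratio, 2.05, was 12 with the stricter list and 1.04 at matched length, and ran from 0.355 to 7.63 with a sample left out, where a group rests on a single list.

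Interval bins called stayed at 0 in limma under all alternatives, the replicate block included, with 1 to 5 bins at an unadjusted p under 0.05 where bins were 100 kb and 0 of 8 windows of 1 Mb. Over all bins 0 were called, and 1 with the stricter list, 6 at matched length, 1 with a larger pseudocount, 1 without the filter, 2 of 1 Mb and 1 to 13 with a sample left out (13 without control 1, 11 without siORCA 1). Deviations of same-numbered samples were weakly opposed (correlation −0.17 over bins). A crossed replicate block, chosen after seeing the data, called 5 of all bins and 0 in the intervals. Depth is unknown, so a peak missing from a list may be too weak for its depth.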
